A study of Mus musculus with 16 samples.

Results

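The clustered Hox genes of the mouse lie in 4 groups of neighbouring genes, Hoxa, Hoxb, Hoxc and Hoxd, and were taken here as every gene whose symbol is Hox followed by a letter from a to d and a number. The rule found 39 of 26219 genes, the same 39 in both expression tables. The Hoxa cluster has 11 of them (chromosome 6), Hoxb 10 (chromosome 11, 96194316 to 96368254, GRCm38), Hoxc 9 (chromosome 15, 102921131 to 103036856) and Hoxd 9 (chromosome 2, 74668225 to 74765142). Paralogue numbers were grouped as anterior (1 to 4, 12 genes), central (5 to 8, 11 genes) and posterior (9 to 13, 16 genes).

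Hox genes encode homeodomain transcription factors that tell cells where they lie along the head-to-tail axis, and their order on the chromosome follows the order in which they are switched on and their anterior limits in the body. Polycomb complexes keep the clusters silent where the genes are not used, and the mesenchyme of the trunk, in which the gonads form, is known for using many of them. Primordial germ cells (PGCs) are the founders of the germ line. They repress the Hox program of neighbouring cells when they are specified, and early PGC precursors without the repressor PRDM1 (BLIMP1) are known for failing to repress Hox genes, Hoxb1 among them.

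Gene expression in sorted PGCs was measured by 3′ RNA sequencing in 16 libraries. The 8 floxed libraries were from C57BL/6 embryos at E11.5, all Prdm1(flox/flox); Rosa26(neo-EYFP/+), whose mothers had been injected at 10.5 dpc (days post coitum) with 3 mg 4-OHT, the active form of tamoxifen, per 25 g body weight. Of these, 4 were controls, and 4 were labelled conditional knockout (CKO) and also carried Dppa3-MCMP(Tg/0), a transgene named for the germ cell gene Dppa3 whose abbreviation the labels do not spell out. The 8 wild-type libraries were from embryos of mixed ICR and C57BL/6 background with a Dppa3(EGFP/+) reporter, 2 each at E10.5, E11.5, E13.5 male and E13.5 female. The labels describe sorting by EYFP and with an antibody to SSEA-1 without tying either to a group. CKO-labelled and control libraries thus differ in the transgene and may differ in the sort, and neither can be told apart from the deletion. The labels also do not say how many animals were pooled or whether replicates came from separate litters. So p-values measure only the spread between these libraries, which may be technical.

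Levels are in RPM (reads scaled to the same total in each library), which are not divided by gene length, so levels of different genes are not compared per molecule. The depth behind them, read from the steps between low values, ranged from 2798000 to 5032000 reads in the floxed set and from 1485000 to 4783000 in the wild-type set, so 3 reads, taken as the detection floor, corresponded to 0.596 to 2.02 RPM. All 12 germ cell markers, Pou5f1, Dppa3 and Ddx4 among them, were above 0 in every library. Prdm1 itself ranged over 50.7 to 73.0 RPM in the 4 controls and over 76.6 to 89.4 RPM in the 4 CKO-labelled libraries, so its 3′ signal did not check the labels. The deleted part may lie outside the 3′ tag, and these libraries are called CKO-labelled throughout.

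The promoter windows of 4 members show the kind of sequence that stood at the starts of these genes. Hoxa5 had the highest level among controls, Hoxa10 was the only member above 0 in every library, Hoxd1 differed between the sexes, and Hoxd12 was listed at 0 in every library. Each window runs 5′ to 3′ from 250 bases before to 50 bases after the RefSeq start (GRCm38.p6), with every CpG dinucleotide in capitals.
Hoxa5, chr6:52204538-52204837, minus strand: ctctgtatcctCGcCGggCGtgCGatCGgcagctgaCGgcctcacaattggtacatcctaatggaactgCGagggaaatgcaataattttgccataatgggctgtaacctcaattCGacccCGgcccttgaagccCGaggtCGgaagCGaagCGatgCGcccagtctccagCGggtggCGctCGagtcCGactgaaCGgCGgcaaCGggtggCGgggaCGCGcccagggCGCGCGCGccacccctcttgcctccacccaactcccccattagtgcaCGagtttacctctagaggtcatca
Hoxa10, chr6:52234890-52235189, minus strand: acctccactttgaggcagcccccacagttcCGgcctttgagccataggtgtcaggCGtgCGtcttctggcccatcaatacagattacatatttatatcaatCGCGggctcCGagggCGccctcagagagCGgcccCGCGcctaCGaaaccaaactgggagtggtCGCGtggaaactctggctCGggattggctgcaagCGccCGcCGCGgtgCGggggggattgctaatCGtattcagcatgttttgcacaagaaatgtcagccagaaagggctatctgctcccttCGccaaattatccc
Hoxd1, chr2:74762730-74763029, plus strand: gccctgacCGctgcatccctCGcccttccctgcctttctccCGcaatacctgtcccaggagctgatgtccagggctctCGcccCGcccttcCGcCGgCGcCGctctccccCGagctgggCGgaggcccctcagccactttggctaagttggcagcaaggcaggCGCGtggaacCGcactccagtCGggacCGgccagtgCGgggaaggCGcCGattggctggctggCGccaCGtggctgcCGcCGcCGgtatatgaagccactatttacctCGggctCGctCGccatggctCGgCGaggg
Hoxd12, chr2:74674763-74675062, plus strand: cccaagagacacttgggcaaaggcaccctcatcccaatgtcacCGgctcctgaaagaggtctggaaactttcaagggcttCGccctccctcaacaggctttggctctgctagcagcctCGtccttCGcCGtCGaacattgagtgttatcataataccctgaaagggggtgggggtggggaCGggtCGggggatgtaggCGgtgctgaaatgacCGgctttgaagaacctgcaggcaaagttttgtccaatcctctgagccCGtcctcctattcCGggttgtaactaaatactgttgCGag
The windows of Hoxa5 and Hoxd1 each hold 29 CpGs, the printed window of Hoxa10 holds 21 and that of Hoxd12 holds 13. The other window of Hoxa10, not printed, holds 12. RefSeq windows were at hand for 22 of the 39 genes (24 windows, since Hoxa10 and Hoxd11 have 2 each), and they held 4 to 45 CpGs, with a median of 14.5 against 7 over all 32851 windows. The letters AGNGAAAG, a core of the PRDM1 motif, occurred on either strand in 2 of the 24 windows (8.33%), those of Hoxd4 and Hoxd13, against 8.63% of all windows of the same length. The letters TGATNNAT, a core at which HOX and PBX proteins bind together, occurred on either strand in 4 of 24 (16.7%), those of Hoxa2, Hoxb1, Hoxb8 and Hoxd11, against 8.85% of all windows. A match is a description of letters and not a bound site.

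Nearly all clustered Hox genes were close to silent. In each of the 6 groups 0 of the 39 genes reached a group mean of 5 RPM. Over all 26219 genes that level was reached by 35.4% in controls, 36.2% in CKO-labelled PGCs, 36.0% at E10.5, 36.1% at E11.5, 36.8% in E13.5 males and 38.0% in E13.5 females. Of the 624 Hox values (39 genes in 16 libraries) 343, or 55.0%, were exactly 0, and the 39 genes together drew 1464 reads over all libraries. At the lower level of 1 RPM the groups held 8 genes (control), 20 (CKO-labelled), 11 (E10.5), 3 (E11.5), 1 (E13.5 male) and 7 (E13.5 female), against 46.4% to 48.8% of all genes.

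**Figure D1:**
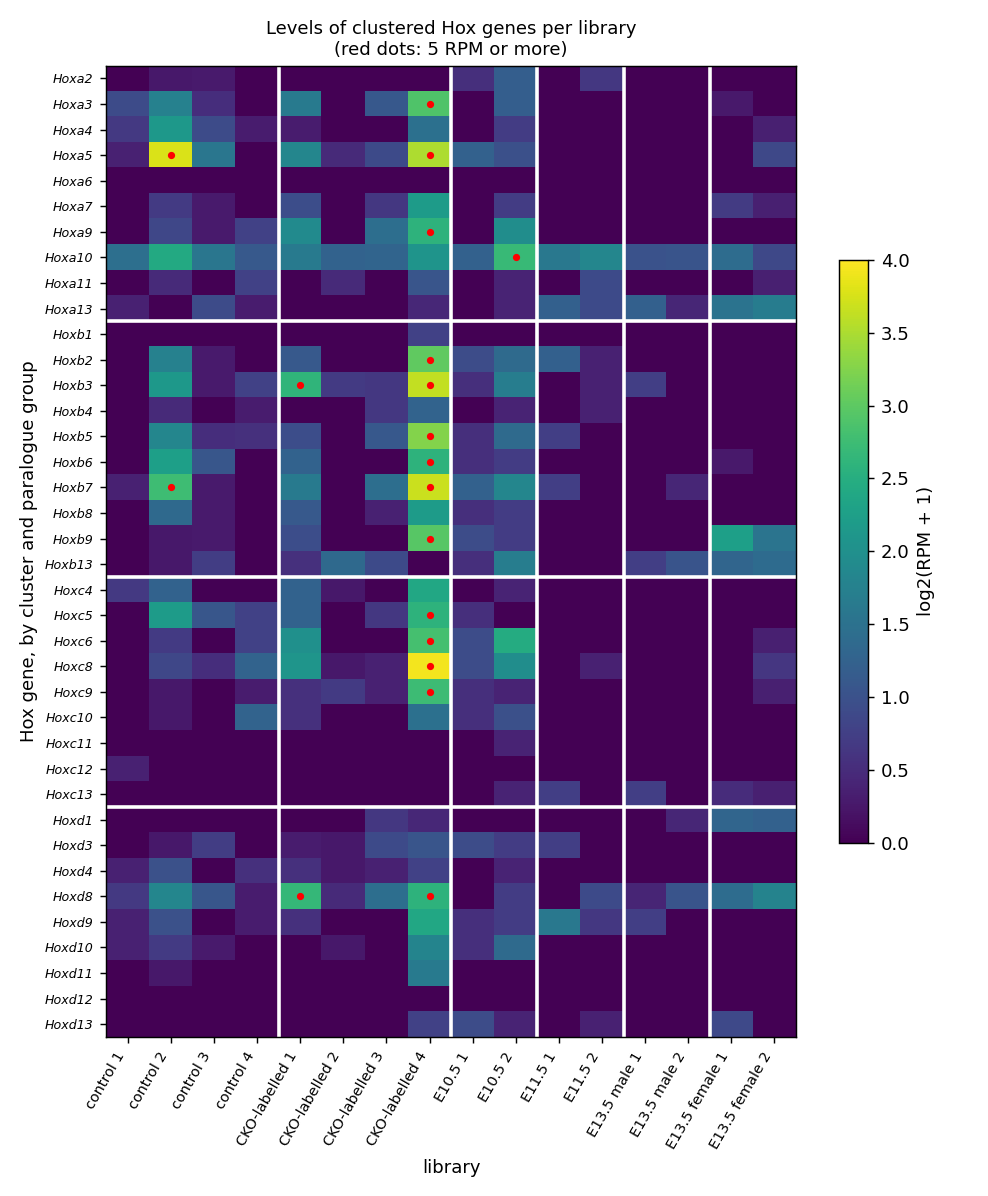
Level of 38 clustered Hox genes (rows, by cluster and paralogue group) in each of the 16 libraries (columns), as log2(RPM + 1), with red dots at values of 5 RPM or more. Of the 19 dots, 14 are in the library CKO-labelled 4, and only Hoxa10 is above 0 in every library.

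The genes nearest to 5 RPM by their highest group mean were Hoxc8, Hoxb3 and Hoxb7, all below it and all highest in the CKO-labelled group. Hoxc8 (chromosome 15, 102990539 to 102994275), a central gene that patterns the lower neck and the thorax, was at 3.25, 0.199, 0.287 and 14.3 RPM in CKO-labelled libraries 1 to 4. Its control values were 0, 0.796, 0.438 and 1.41 RPM. The mean of 4.51 ± 6.68 RPM (SD, n = 4) therefore rested on library 4, and without it the mean was 1.25 RPM, against 0.662 ± 0.597 RPM in controls (SD, n = 4).

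Hoxb3 (chromosome 11, 96307101 to 96347930), an anterior gene of the hindbrain and upper neck, was at 5.11, 0.596, 0.574 and 11.4 RPM in CKO-labelled libraries 1 to 4 and at 0, 3.38, 0.219 and 0.707 RPM in controls 1 to 4. Hoxb7 (chromosome 11, 96285604 to 96290163), a central gene of the thorax, was at 2.09, 0, 1.72 and 11.8 RPM in CKO-labelled libraries and at 0.294, 5.77, 0.219 and 0 RPM in controls. For both genes the groups overlapped, and control 2 stood above the other controls. Apart from these 3 genes and those called in a comparison, the Hox genes named here were singled out after their values were seen.

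The high values belonged to a few libraries. Of the 19 values at or above 5 RPM, in 15 different genes, 14 were in CKO-labelled 4, 2 in CKO-labelled 1 (Hoxb3 and Hoxd8), 2 in control 2 (Hoxa5 and Hoxb7) and 1 in E10.5 library 2 (Hoxa10). In CKO-labelled 4 the 14 genes included 6 of the Hoxb cluster, 4 of Hoxc, 3 of Hoxa and 1 of Hoxd, and by paralogue 8 were central, 3 anterior and 3 posterior. Hoxa5, a gene of lung and thoracic patterning, was at 12.7 RPM in control 2 and at 0 to 1.97 RPM in the other controls. It was at 10.4 RPM in CKO-labelled 4 and at 0.397 to 2.55 RPM in the other CKO-labelled libraries.

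Summed over the 39 genes, controls 1 to 4 were at 6.47, 58.9, 13.8 and 10.1 RPM, and CKO-labelled libraries 1 to 4 were at 41.1, 7.55, 16.1 and 146 RPM. In wild-type libraries 1 and 2 the E10.5 sums were 14.4 and 40.3 RPM, the E11.5 sums 9.43 and 7.69 RPM, the E13.5 male sums 5.34 and 4.23 RPM and the E13.5 female sums 16.5 and 15.1 RPM. The floxed groups thus overlapped in their sums, while both E13.5 females lay above both males and both E11.5 libraries. Central genes made up 58.8% of the sum in control 2, 50.2% in CKO-labelled 4 and 53.7% in CKO-labelled 1. In the wild-type E11.5 libraries posterior genes made up 64.3% and 66.7% of much smaller sums, of 14 and 27 reads.

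**Figure D2:**
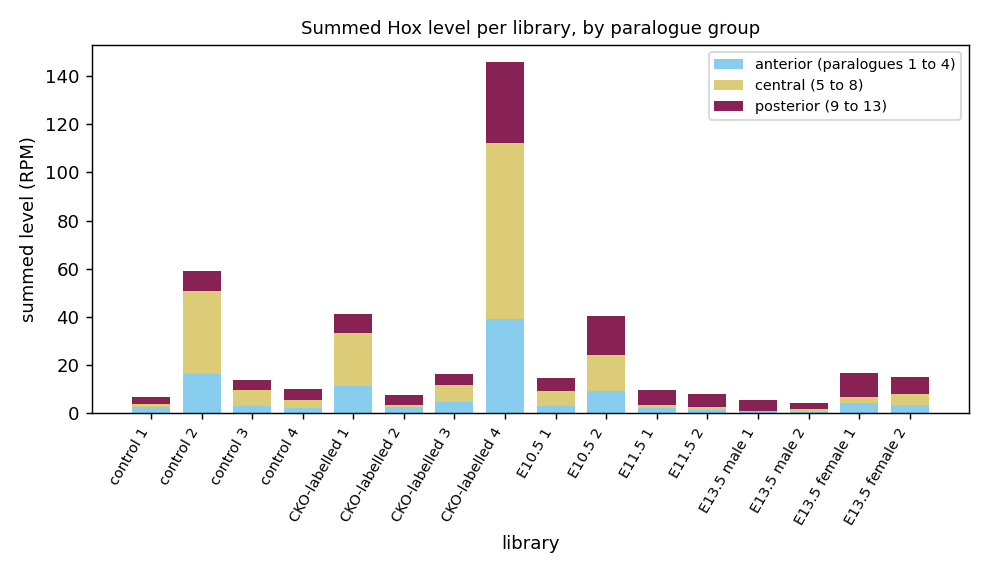
Summed level in RPM of the 39 Hox genes in each library (bars, from 0), split into anterior, central and posterior paralogue groups. CKO-labelled 4 (146 RPM) and control 2 (58.9 RPM) stand above the other libraries of their groups, and central genes are the largest share in both.

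Some marker lists of other cells, the gonadal somatic list among them, were high in the same floxed libraries. The 18 gonadal somatic and mesenchymal markers, such as Wt1, Gata4 and the collagen genes, summed to 317 RPM in CKO-labelled 4 and 134 RPM in CKO-labelled 1, against 23.8 and 14.4 RPM in CKO-labelled 2 and 3. They summed to 94.7 RPM in control 2 and to 15.6 to 41.2 RPM in the other controls. In the wild-type set their E10.5 sums were 72.2 and 79.4 RPM and their E11.5 sums 6.73 and 14.2 RPM, and E13.5 males had 17.7 and 18.7 RPM and E13.5 females 8.36 and 9.87 RPM. All 18 markers were above 0 in CKO-labelled 4 and 7 to 17 of them elsewhere, and Col3a1, the most abundant, was at 112 RPM in CKO-labelled 4 and at 0.673 to 42.5 RPM in the other libraries. Endothelial markers (8 genes) summed to 111 RPM in CKO-labelled 4 and to 14.4 to 33.7 RPM in the other floxed libraries, and pre-granulosa markers (5 genes) to 44.7 RPM against 1.18 to 17.0 RPM. Other lists did not peak in CKO-labelled 4. Erythroid markers summed to 32.2 RPM there and 67.2 RPM in CKO-labelled 3, and macrophage markers to 7.86 RPM there and 15.8 RPM in CKO-labelled 1. Mesonephric markers were at 174 RPM there and 241 RPM in control 2, and Sertoli cell markers at 2.14 and 3.78 RPM. Most of these mesonephric sums was Epcam, at 127 RPM in CKO-labelled 4 and 156 RPM in control 2. Without Epcam the mesonephric sums were 46.8 RPM in CKO-labelled 4 and 84.7 RPM in control 2, each the highest of its group. Apart from a fit that included the somatic marker sum, given with the comparison of CKO-labelled and control PGCs, the part of such cells in the Hox levels was not tested, and in bulk libraries more cells of a type and more RNA per cell cannot be told apart.

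**Figure D3:**
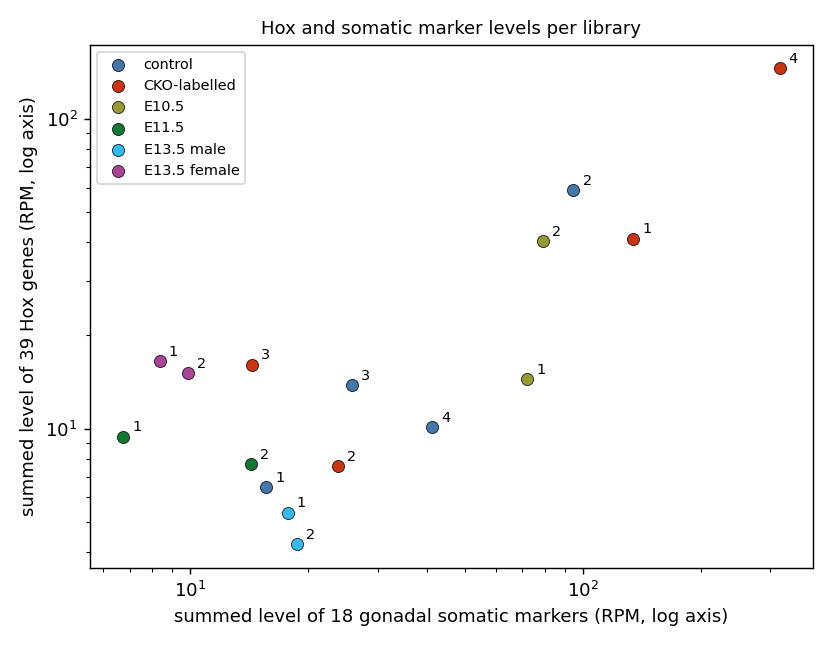
Summed RPM of the 39 Hox genes against summed RPM of the 18 somatic markers, both on log axes, with 1 point per library, numbered by replicate. CKO-labelled 4 is highest on both axes, control 2 and CKO-labelled 1 come next, and the E13.5 females lie above the E13.5 males on the Hox axis and below them on the somatic axis.

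Many genes beside the clusters were expressed. The list of protein-coding neighbours held 28 names, with Lnp and Lnpk naming the same gene. These names matched 25 genes in the data, which lay up to 910 kb from a cluster. Of these, 19 passed the 5 RPM filter in the floxed and 22 in the wild-type libraries, against 0 of the 39 Hox genes in either. Of all 26219 genes, 9384 and 10749 passed. Mtx2, a mitochondrial import gene 61 kb from the Hoxd cluster, was at 84.3 to 221 RPM over the 16 libraries, and Lnp, an endoplasmic reticulum gene 89 kb away on the other side, at 6.89 to 31.0 RPM. Skap2, an adaptor protein gene 143 kb from Hoxa, was at 26.8 to 93.5 RPM, and Cbx5, which encodes a heterochromatin protein 155 kb from Hoxc, at 125 to 201 RPM. Beside Hoxb, Atp5g1, an ATP synthase gene 119 kb away, was at 500 to 1547 RPM, while Ttll6 (28 kb) was at 0 to 2.30 RPM and Skap1 (96 kb) at 0 to 0.569 RPM. Evx1, the homeobox gene beyond Hoxa13, was at 2.93 to 6.72 RPM, and Evx2 beside Hoxd13 was listed at 0 in all 16 libraries.

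**Figure D4:**
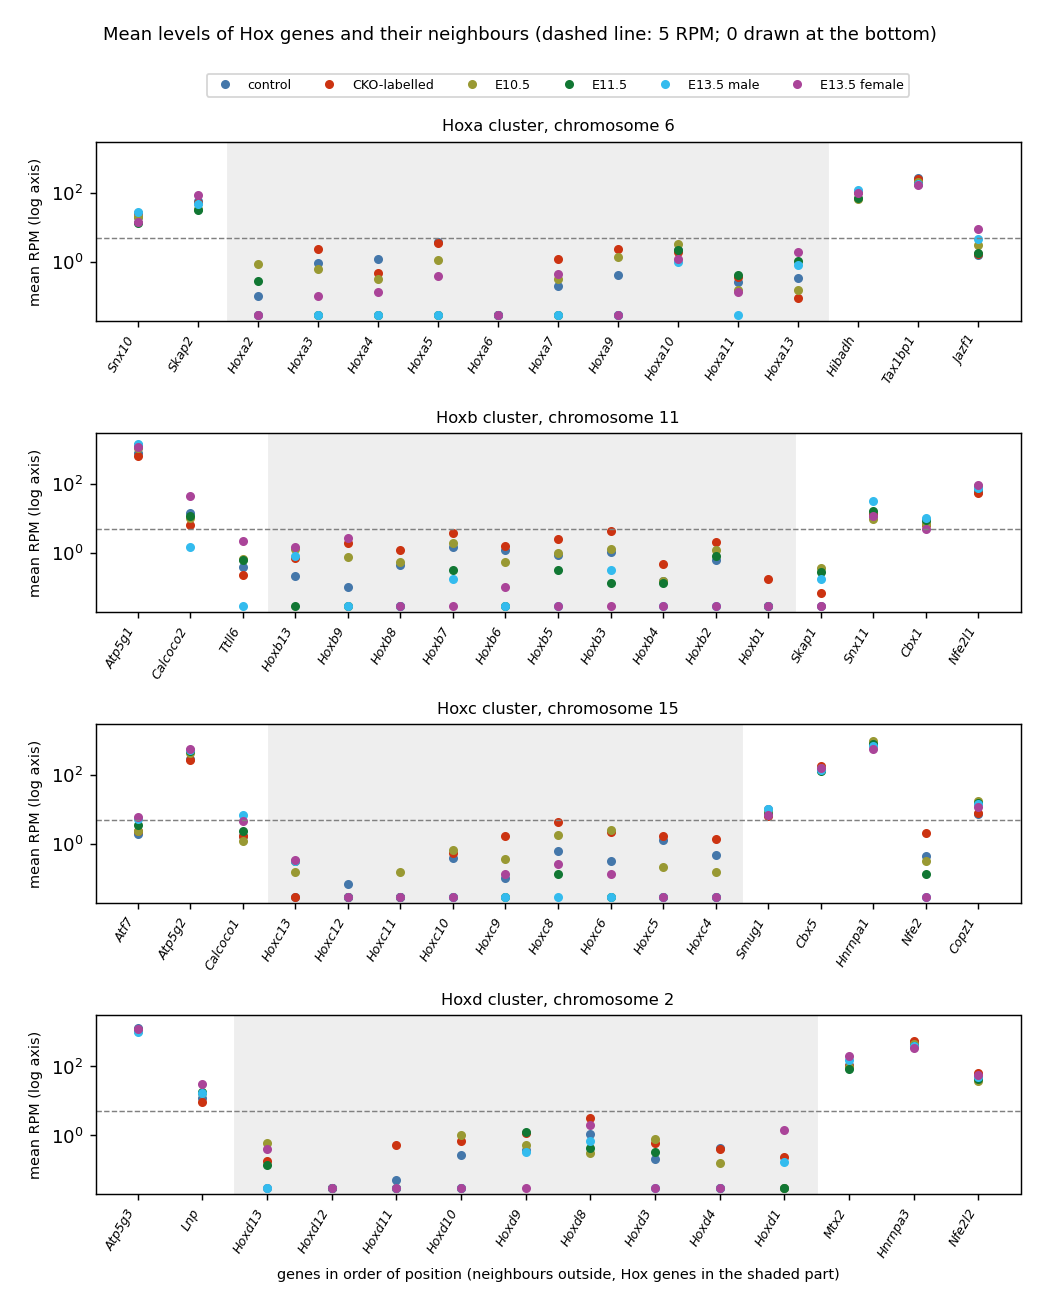
Mean RPM (log axis) of 38 clustered Hox genes (shaded) and of its listed protein-coding neighbours, in order of position along the chromosome, with 1 point per group. Every Hox point lies below the dashed line at 5 RPM, most neighbours lie above it, and points at the bottom are genes listed at 0, where groups overlap.

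Whether any Hox gene responded to Prdm1 deletion was asked by comparing CKO-labelled with control PGCs at E11.5. The test was limma on log2(RPM + 1) over genes with at least 5 RPM in 4 of the 8 floxed libraries, and it called 228 of 9384 genes (2.43%) at an adjusted p under 0.05. None of the 39 Hox genes passed that filter, so 0 were tested in it. With no filter on low values, 35 Hox genes with a read in any floxed library were tested, and 0 were called, against 152 of 18896 genes (0.804%). At an unadjusted p under 0.05 there were also 0 of 35, against 9.44% of all genes, and voom on reads recovered from the steps called 0 as well.

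No Hox gene passed a test here, and the lean of the members as a whole changed with the libraries left out. Their median log2 difference with no filter was 0.35 (30 higher and 5 lower of 35), against 0.01 over all genes tested. In plain RPM the CKO-labelled mean was higher for 28 of the 39 and lower for 7. Without CKO-labelled 4 it was higher for 16 and lower for 17, and the median was 0. Without both CKO-labelled 4 and control 2, an alternative chosen after the data were seen, it was higher for 24 and lower for 8, and the median was 0.22. With the somatic marker sum as a covariate the median was 0.14 (22 higher and 13 lower of 35), and with library quality weights it was 0.11 (22 and 13). CKO-labelled 4 was the highest of the 8 floxed libraries for 25 genes, and without it 9 rather than 20 genes reached a group mean of 1 RPM.

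Hoxa9, a posterior gene used in the trunk and in blood progenitors, had the smallest p. It was at 2.79, 0, 1.72 and 5.00 RPM in CKO-labelled libraries and at 0, 0.796, 0.219 and 0.707 RPM in controls, a log2 difference of 1.01 ± 0.49 (SE) with a limma adjusted p of 0.574. Hoxc9, a posterior gene of the lower thorax, was the only member whose groups did not overlap, at 0.464, 0.596, 0.287 and 5.72 RPM against 0, 0.199, 0 and 0.236 RPM. Over all genes with a read in the floxed libraries, 5.68% did not overlap, so 1 of 35 does not exceed that share. Outside CKO-labelled 4 each of these Hoxc9 values lay below the 3-read floor of its library or at it. The 3 genes nearest to 5 RPM had log2 differences of 1.00 ± 0.73 (Hoxc8), 1.10 ± 0.71 (Hoxb3) and 0.83 ± 0.79 (Hoxb7), with limma adjusted p of 0.750, 0.715 and 0.809.

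Hoxb1, the most anterior gene of the Hoxb cluster, is known from the specification of PGCs. It (chromosome 11, 96365746 to 96368254) was listed at 0 in 7 of the 8 floxed libraries and at 0.715 RPM, or 2 reads, in CKO-labelled 4, so it was under the floor throughout. No difference between the groups was detectable at this depth.

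Of the genes that act with or on the Hox genes, few were called in this comparison, which called 2.43% of all genes. Among the TALE homeobox cofactors, which bind DNA together with HOX proteins, 0 of 4 tested were called (9 matched, median log2 difference 0.21). Pbx2 averaged 37.6 RPM in CKO-labelled PGCs against 40.4 RPM in controls, and Pknox1 and Meis2 were also among the more abundant. Meis2 was at 42.2 RPM in CKO-labelled 4 and at 0.861 to 10.3 RPM in the other floxed libraries. Among Polycomb and trithorax regulators, which silence and maintain the clusters, 1 of 26 was called (3.85%, near the share of all genes, median 0.04). That was Phc2, a subunit of the chromatin-compacting Polycomb complex, at 54.3, 48.7, 60.9 and 45.4 RPM in CKO-labelled libraries and at 19.7, 30.0, 32.4 and 18.8 RPM in controls, a log2 rise of 1.05 ± 0.18 (SE, limma adjusted p = 0.00668). Rbbp7, Ash2l, Dpy30 and Ezh2 were the most abundant of those not called, and Ezh2, the enzyme that writes the Polycomb mark, averaged 271 RPM in CKO-labelled PGCs against 287 RPM in controls.

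Of the caudal, mesodermal and retinoic acid inputs to the clusters 1 of 4 tested was called (17 matched, median 0.16). Crabp2, which carries retinoic acid to its receptors, was at 30.0, 12.7, 15.5 and 20.4 RPM in CKO-labelled libraries and at 4.38 to 5.77 RPM in controls, a log2 rise of 1.70 ± 0.25 (SE, limma adjusted p = 0.00157). Among the neighbours 1 of 19 was called (5.26%). Each of these shares rests on at most 1 gene. That was Calcoco2, an autophagy receptor gene 70 kb from Hoxb, at 5.37 to 8.90 RPM in CKO-labelled libraries and 10.3 to 17.5 RPM in controls, which fell by 1.01 ± 0.23 on the log2 scale (SE, limma adjusted p = 0.0304). For non-coding transcripts of the clusters, the 27 names listed matched 11 genes, of which 0 were tested. The highest was Mira, transcribed within the Hoxa cluster, at 7.51 RPM in CKO-labelled 4 and 0 to 2.32 RPM in the other 15 libraries.

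Across wild-type development, E11.5 was first compared with E10.5. All 8 wild-type libraries were fitted together, and of genes with at least 5 RPM in 2 of them 460 of 10749 (4.28%) were called. Again 0 Hox genes passed the filter. With no filter 34 Hox genes were tested and 0 were called, against 80 of 18473 genes (0.433%). The means were lower at E11.5 for 28 Hox genes and higher for 5, with a median log2 difference of -0.46 with no filter, against 0 over all genes. At an unadjusted p under 0.05, 12 of 34 (35.3%) were lower, against 7.15% of all genes, and 1, Hoxa13, was higher.

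Those 12 genes were Hoxa5, Hoxb3, Hoxb6, Hoxb7, Hoxb8, Hoxb9, Hoxb13, Hoxc6, Hoxc8, Hoxc9, Hoxc10 and Hoxd10, and 9 of them were listed at 0 in both E11.5 libraries. Such zeros add no spread to the estimate shared by the wild-type groups, so these p-values can be too small. Hoxc6, a central gene of the thorax, had the smallest p. It was at 0.903 and 4.48 RPM at E10.5 and at 0 in both E11.5 libraries, where 3 reads would be 2.02 and 0.854 RPM, a log2 difference of -1.69 ± 0.43 (SE) with a limma adjusted p of 0.142. With voom on recovered reads Hoxc6 was called (adjusted p = 0.0338). When an E10.5 library was left out, 5 genes were called without library 1 (Hoxa9, Hoxb8, Hoxc6, Hoxc10 and Hoxd10) and 4 without library 2 (Hoxb8, Hoxc5, Hoxc10 and Hoxd10), with the lone E10.5 library assumed to vary like the other groups. Markers of other cells were also higher at E10.5. The somatic marker sums are given above, and erythroid markers (6 genes) summed to 224 and 213 RPM at E10.5 against 14.8 and 5.98 RPM at E11.5. Their part in the Hox levels was not tested.

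Hoxa10 (chromosome 6, 52231197 to 52240854), a posterior gene best known for patterning the reproductive tract, was the only member above 0 in all 16 libraries. Its E10.5 levels were 1.35 and 5.44 RPM, its E11.5 levels 2.02 and 2.56 RPM, its E13.5 male levels 1.00 and 1.06 RPM and its E13.5 female levels 1.67 and 0.822 RPM. Controls 1 to 4 were at 1.77, 4.38, 1.97 and 1.18 RPM and CKO-labelled libraries at 2.09, 1.39, 1.44 and 3.22 RPM. None of the 4 comparisons called it with no filter (limma adjusted p from 0.355 to 0.951). Unlike the sum of all members, Hoxa10 was not highest in CKO-labelled 4 among the floxed libraries, since control 2 was higher. Of the genes that act on the clusters, Meis2 fell by 1.58 ± 0.46 from E10.5 to E11.5 (SE, log2 scale, limma adjusted p = 0.0477). Aldh1a2, a retinoic acid synthesis enzyme, fell by 1.66 ± 0.37 (limma adjusted p = 0.00815), and the Polycomb accessory gene Phf19 fell by 0.64 ± 0.18 (limma adjusted p = 0.0372). In CKO-labelled 4, where the somatic marker sum was highest, Meis2 was at 42.2 RPM and Aldh1a2 at 38.6 RPM. In the other floxed libraries they were at 0.861 to 10.3 RPM and 2.58 to 14.4 RPM. The somatic marker sum was also higher at E10.5 than at E11.5, and the part of other cells in the falls of Meis2 and Aldh1a2 was not tested.

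E13.5 was next compared with E11.5, as the mean of both sexes. The filtered test called 5146 of 10749 genes (47.9%), with 0 Hox genes among those tested. With no filter 4 of 34 Hox genes (11.8%) were called, all higher at E13.5, against 4701 of 18473 genes (25.4%) in either direction and 15.6% higher. The share of Hox genes called was thus below that of all genes. Among them were Hoxd1 (log2 difference 0.75 ± 0.19 SE, limma adjusted p = 0.0225), Hoxb9 (0.95 ± 0.26, adjusted p = 0.0292) and Hoxb13 (1.12 ± 0.34, adjusted p = 0.0439). Each of these was listed at 0 in both E11.5 libraries, and of the 3 only Hoxb13, a gene of the tail end and the prostate, was above 0 in both sexes and all 4 E13.5 libraries, at 0.668 and 1.06 RPM in males and 1.46 and 1.64 RPM in females. The calls changed with single libraries. Without E11.5 library 1 there were 0, without E11.5 library 2 there were 2 other genes (Hoxd3 and Hoxb2), without either male library only Hoxd1 was called, and without either female library Hoxb13 was lost.

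E13.5 females were last compared with E13.5 males. At this age female PGCs enter meiosis and male PGCs enter mitotic arrest. With no filter 3 Hox genes were called higher in females, Hoxb9 and Hoxd1 among them, and 0 were called lower. The filtered test called 4038 of 10749 genes (37.6%), with 0 Hox genes tested. These 3 made up 8.82% of 34 Hox genes, against 3579 of 18473 genes (19.4%) in either direction and 11.2% higher, so the share of Hox genes was again not above that of all genes. Over the 34 tested the median log2 difference was 0.09, against 0.03 over all genes.

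Hoxb9 (chromosome 11, 96271330 to 96276595), a posterior gene of the thorax, was at 3.76 and 1.92 RPM in females (18 and 7 reads) and was listed at 0 in both male and both E11.5 libraries. Its female mean was 2.76 times the mean level of 3 reads in the male libraries, which is a chosen floor and not a bound on the male level. The log2 difference of Hoxb9 on the log2(RPM + 1) scale was 1.90 ± 0.30 (SE, limma adjusted p = 0.00355). A group listed at 0 in both libraries adds no spread to the shared estimate, so the SEs here can be too small. Hoxd1 (chromosome 2, 74762980 to 74765142), an anterior gene whose CpG-rich promoter is printed above, was at 1.46 and 1.37 RPM in females (7 and 5 reads) and at 0 and 0.352 RPM in males (0 and 1 read), a log2 difference of 1.06 ± 0.22 (SE, limma adjusted p = 0.0121).

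**Figure D5:**
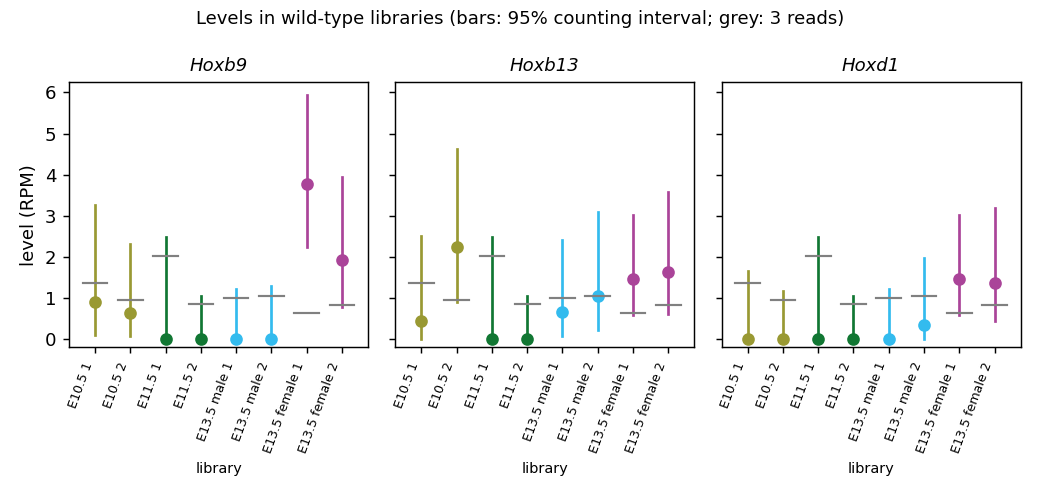
Levels in RPM of Hoxb9, Hoxb13 and Hoxd1 in each of the 8 wild-type libraries (points), with 95% exact Poisson intervals (bars, counting error only) and the level of 3 reads in that library (grey lines). For Hoxb9 and Hoxd1 both female points lie above both male points, while the counting intervals are wide.

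In both females Hoxb9 and Hoxd1 stood above the 3-read floor of the library, and both female values exceeded both male values for 7 of the 34 members with a read in the wild-type set (20.6%), Hoxa7, Hoxa13, Hoxb13 and Hoxd8 among them. Over all genes with a read 31.3% did so, so this count is not above the background. The 95% exact Poisson intervals of Hoxb9 were 2.23 to 5.95 RPM and 0.771 to 3.95 RPM in females, and the upper bound in males was at most 1.3 RPM, so only female library 1 is clear of the males by counting error alone. With only the 4 E13.5 libraries in the fit, Hoxb9 and Hoxd1 were no longer called (limma adjusted p = 0.0622 and 0.0734), and without female library 1 the call of Hoxd1 was lost (adjusted p = 0.0551, limma). Somatic markers were lower in females (8.36 and 9.87 RPM) than in males (17.7 and 18.7 RPM), whereas erythroid markers were higher in females (22.8 and 32.6 RPM against 2.67 and 3.52 RPM). Among mesonephric markers Gata3 and Krt18 were called higher in females and Ret, Lhx1 and Epcam lower. Pax2, Cdh16 and Sim1 of the same list were at 0 in all 4 E13.5 libraries. The called genes of this list thus need not stand for mesonephric cells. The part of other cells in the Hox difference was not tested.

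Some genes known to act on the clusters were also called between the sexes, in a comparison that called 37.6% of all genes at 5 RPM. Cdx1, a caudal homeobox factor that switches on Hox genes in the trunk, was at 10.2 and 15.4 RPM in females and 1.34 and 1.06 RPM in males (log2 difference 2.63 ± 0.49 SE, limma adjusted p = 9.11e-05). Its relative Cdx2 was at 10.5 and 8.50 RPM in females, was listed at 0 in both males (limma adjusted p = 3.68e-06), and was at 1.35 and 1.71 RPM in E11.5 PGCs. Of the inputs tested 4 of 7 were higher in females, Cdx1, Cdx2, Crabp1 and Crabp2, and 1 was lower, Aldh1a2. Among Polycomb and trithorax regulators 11 of 30 were higher in females (Rnf2, Phf19, Phc2, Mll1, Cbx2, Cbx8, Kdm6a and Rbbp7 among them) and 7 lower (Rbbp5, Mtf2, Phc1, Eed, Ash2l, Kdm6b and Dpy30), which is 18 of 30 in either direction against 37.6% of all genes, with a median of 0.15 against 0.05 over all genes.

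The largest of these was Phf19, which guides the Polycomb methyltransferase complex, at 149 and 124 RPM in females and 13.7 and 8.45 RPM in males (log2 difference 3.54 ± 0.18 SE, limma adjusted p = 3.80e-15). Kdm6b, a demethylase that removes the Polycomb mark, was at 3.14 and 0.548 RPM in females and at 5.28 RPM or more in both males (log2 difference -1.84 ± 0.53 SE, limma adjusted p = 0.00667). From E11.5 to E13.5 (sexes averaged), 9 of the 30 regulators were called higher (Rnf2, Bmi1, Mll1, Suz12, Cbx8 and Rbbp7 among them) and 7 lower (Phf19, Phc2, Eed, Pcgf2, Jarid2, Cbx7 and Dpy30), or 53.3% in either direction, close to the 47.9% of all genes. For 3 of the 7 the mean of the sexes joins unlike levels. Phf19 averaged 75.8 RPM at E11.5, 11.1 RPM in males and 136 RPM in females. Phc2 averaged 40.8, 14.3 and 43.7 RPM in the same order, and Pcgf2 averaged 31.7 RPM at E11.5 and 31.5 RPM in females, and lay lower in both male libraries, so the lower E13.5 mean of these 3 came from the male libraries. Among TALE cofactors Pbx2 was called higher in females than in males, and Pbx3 rose from E11.5 to E13.5. The neighbour Calcoco2 was at 50.2 and 43.6 RPM in females and 1.00 and 2.11 RPM in males, a log2 difference of 4.26 ± 0.34 (SE, limma adjusted p = 5.89e-11). The wild-type comparisons share libraries and an estimate of spread, so their calls are not independent of each other.

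Some members were hardly seen at all. Hoxa6 and Hoxd12 were listed at 0 in all 16 libraries, Hoxc11 and Hoxc12 were above 0 in 1 library each, and Hoxb1 in 1. By group, 7 members were at 0 in all 4 controls and 6 in all 4 CKO-labelled libraries, against 6 at E10.5, 24 at E11.5, 30 in E13.5 males and 21 in E13.5 females (2 libraries each). A value of 0 lies below the 3-read floor, at 0.596 to 1.07 RPM in floxed and 0.627 to 2.02 RPM in wild-type libraries, and the upper end of its exact 95% Poisson interval is higher, at 0.733 to 1.32 RPM and 0.771 to 2.48 RPM. Exons of 8 members overlap an annotated transcript on the opposite strand and those of 6 one on the same strand (GENCODE M21). The sources used here do not say whether counting used strand, so reads of such pairs cannot be told apart.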

How the data were processed

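PGC libraries were made by 3′ RNA sequencing in 16 samples, 8 floxed and 8 wild-type, and grouped by their labels. The deposited values are RPM per gene, made by the authors in 2 tables that were normalised separately, so tests were run only within a table. The submitters' processing notes name cutadapt 1.3, TopHat 1.4.1, Cufflinks 2.2.0 and mm10, without saying which step each served. Strand handling is not given in the sources used here. Spike-in rows (92) were left out.

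From these values log2(RPM + 1) was tested with limma 3.58.1 (R 4.3.3; lmFit and eBayes with a variance trend), with Benjamini-Hochberg adjustment over all genes tested and a threshold of 0.05. Genes needed 5 RPM in 4 of 8 floxed or 2 of 8 wild-type libraries. Since 0 Hox genes passed, a fit with no filter was added after the data were seen. Reads per value were recovered from the steps between low values. They gave the depth (1485000 to 5032000), the 3-read floor and exact Poisson 95% intervals, which cover counting error only, and they were used in voom as an alternative. The code was tested on simulated data.

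The members and lists were chosen with earlier results of these data known. Named genes were every called member, the 3 members nearest 5 RPM by highest group mean and, in the other lists, every called gene and up to 4 more with the highest mean, except that among lists with many calls only examples have values here. A few genes of these lists count in the sums and counts and are not reported here by name. Alternatives were the pseudocount, filter, scaling, weights, threshold, replicate block and libraries left out. Positions are from RefSeq (GRCm38.p6), overlaps from GENCODE M21.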

Additional observations from a re-analysis of the deposited data

Results flagged for a closer look

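In controls, library 2 lay far above the other 3, by Dixon's criterion for a group of 4, in the summed level of all 39 Hox genes (58.9 RPM), of the Hoxa cluster (26.3 RPM), of the Hoxb cluster (20.3 RPM), of the anterior genes (16.1 RPM) and of the central genes (34.6 RPM), and in Hoxa5 (12.7 RPM) and Hoxb7 (5.77 RPM). In the CKO-labelled group, library 4 lay far above the others in the summed level of the posterior genes (33.6 RPM) and in Hoxc9 (5.72 RPM). In all, 9 of 32 groups of values stood out in this way. The criterion's rate of about 1 in 20 holds for normally spread values chosen beforehand. Some of these genes were chosen after their values were seen, and many values lie near the floor. The sums and genes also share members and libraries, so this count cannot be set against that rate.

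The difference from E11.5 was larger in E13.5 females than in E13.5 males for Hoxd1 and Hoxb9, tested with limma as the female minus male contrast with no filter on low values. The log2 differences were 1.06 for Hoxd1 and 1.90 for Hoxb9, and for each gene both female values lay above both male values. These are the same tests as in the comparison of the sexes.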

How the results depend on the processing

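At a group mean of 1 RPM rather than 5 RPM the members numbered 8 (control), 20 (CKO-labelled), 11 (E10.5), 3 (E11.5), 1 (E13.5 male) and 7 (E13.5 female). Leaving out 1 library at a time gave 0 to 3 members at 5 RPM in the CKO-labelled group (3 without library 2, 2 without library 3), 0 to 1 at E10.5 and 0 in the other groups. With the 5 RPM filter 0 members were tested, so settings that keep it say nothing about stability. With no filter the members called were 0 (CKO-labelled), 0 (E11.5 against E10.5), 4 (E13.5 against E11.5) and 3 (female against male). With a 1 RPM filter the last 2 were 1 and 2. In the CKO-labelled comparison 0 were called under every alternative run, leaving out each library and a somatic marker covariate included. From E10.5 to E11.5, voom called 1 and leaving out 1 library gave 0 to 5. Hoxa10 differed by -0.97 to 0.48 there, changing sign without E10.5 library 2. From E11.5 to E13.5, leaving out 1 library gave 0 to 3. For females against males it gave 3 each time, and fitting only the groups compared gave 1. The replicate block changed no call of a member (0, 0, 4 and 3), and over all genes with no filter it gave 72 rather than 152 calls in the CKO-labelled comparison and 30 rather than 80 from E10.5 to E11.5. Same-numbered floxed libraries correlated at r from 0.0198 to 0.252 in their deviations, 3 of 4 best with their own number, and the numbers are not taken as pairs. Over all genes the CKO-labelled calls ranged from 137 to 204 without 1 library, were 139 with a 20 RPM filter and, with no filter, 152 (246 at an adjusted p under 0.1), or 51 to 86 without 1 library, 7 without control 1 and CKO-labelled 4 and 38 without control 2 and CKO-labelled 4. From E10.5 to E11.5, 460 became 80 with no filter, 27 with no variance trend, 79 with only the groups compared, 279 with library weights, 901 at an adjusted p under 0.1 and 105 to 486 without 1 library, and the 80 with no filter became 0 (only the groups compared) to 333 (voom). Median-ratio scaling turned the filtered 248 higher and 212 lower into 212 and 280. From E11.5 to E13.5, quantile scaling turned 3121 higher and 2025 lower into 2555 and 2560, with the median of all genes moving from 0.11 to -0.01. With no filter, leaving out 1 library gave 2687 to 3608 calls rather than 4701 from E11.5 to E13.5 and 1851 to 2057 rather than 3579 between the sexes. The cause of these shifts was not tested. A count test (edgeR) on recovered reads was planned and not run, since not all values came out whole. Depth also limits the members: 3 reads are 2.02 RPM in E11.5 library 1.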
